A study of Mus musculus with 9 samples.

Results

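The protocadherin genes were taken as every row of the count table whose NCBI gene ID maps to a mouse symbol starting with Pcdh and whose value was above 0 in some library. There were 70 such genes among 36172 features, of which 19250 were above 0. The clusters on chromosome 18 gave 58 of them, with 14 Pcdha, 22 Pcdhb and 22 Pcdhg genes. The other 12 lie outside the clusters. They comprise the delta1 genes Pcdh1, Pcdh7, Pcdh9 and Pcdh11x, the delta2 genes Pcdh8, Pcdh10, Pcdh17, Pcdh18 and Pcdh19, and Pcdh12, Pcdh15 and Pcdh20.

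Bulk RNA-seq was made from frozen medial prefrontal cortex (mPFC) of DBA2/J mice, an inbred strain that all groups share. SA:ANH-KDM5Ci mice went through 5 days of social defeat stress, were assigned to the SA:ANH subtype and received an inhibitor of KDM5C, a histone demethylase that acts on methylated lysine 4 of histone H3. SA:ANH-vehicle mice had the same stress and subtype and received a vehicle, which the treatment labels call saline. NS mice were not stressed and received saline. Each group had 3 libraries. The sources used here did not give the inhibitor's name and dose, the meaning of SA:ANH, the sex and age of the mice or whether each library is a separate mouse. Without that knowledge, the p-values below speak of the spread among these 9 libraries, and part of it may be technical.

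Protocadherins are calcium-dependent adhesion proteins of the cell surface, most of them strongly expressed in the brain. In the Pcdha and Pcdhg clusters each variable first exon has its own promoter and encodes a whole extracellular part with the membrane span, and is spliced to shared constant exons that encode a common cytoplasmic tail. Individual neurons differ in their choice of these promoters. The choice gives each neuron a surface identity used in self-avoidance of dendrites. Most C-type genes at the cluster ends (Pcdhac2, Pcdhgc3, Pcdhgc4, Pcdhgc5) are instead used broadly. Pcdhb genes consist of a variable exon alone. Protocadherins outside the clusters carry their own cytoplasmic tails, and the delta2 members act on actin through the WAVE complex.

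Library depth ran from 29845097 to 42196472 counts, and protocadherins held from 0.215% to 0.244% of the counts of a library. Excitatory neuron markers summed to between 7058 and 7690 CPM (counts scaled to a common library size, with TMM factors) in every library, and none of the 8 passed the test in any comparison. Markers of other cells and regions varied within and between groups. Oligodendrocyte markers summed to 3462, 2645 and 3153 CPM in SA:ANH-KDM5Ci, to 2964, 1891 and 1881 CPM in SA:ANH-vehicle and to 2957, 1881 and 1451 CPM in NS. Striatal neuron markers summed to 550, 225 and 360 CPM in SA:ANH-KDM5Ci, against 260, 203 and 196 CPM in SA:ANH-vehicle and 308, 191 and 175 CPM in NS. SA:ANH-KDM5Ci replicate 1 was the highest library for both lists, and replicate 1 was the highest library of its group for both in all 3 groups. None of these 15 markers passed the test in any comparison. Blood cell markers summed to 391, 372 and 495 CPM in SA:ANH-KDM5Ci and 406, 466 and 433 CPM in SA:ANH-vehicle, against 264, 272 and 235 CPM in NS, and 4 of 4 were called higher in SA:ANH-KDM5Ci against NS and 1, the globin gene Hbb-bs, in SA:ANH-vehicle against NS. Oligodendrocyte precursor markers summed to 281, 261 and 267 CPM in SA:ANH-KDM5Ci, against 243, 236 and 221 CPM in SA:ANH-vehicle and 264, 234 and 225 CPM in NS. Of these 6, Olig1 and Olig2 were called higher in SA:ANH-KDM5Ci against SA:ANH-vehicle, and Olig2 in SA:ANH-KDM5Ci against NS. Sox10 went the other way, at 14.6, 14.7 and 14.8 CPM in SA:ANH-KDM5Ci, below every other library. Its log2 fold change against NS was -0.50 (adjusted p 0.102). The median log2 fold change of these markers was 0.09 against SA:ANH-vehicle and 0.002 against NS. The interneuron gene Lhx6, 1 of 8 listed, was called higher in SA:ANH-KDM5Ci against NS, where that list's median log2 fold change was 0.10. Lef1, 1 of 6 from the list of olfactory bulb and thalamus, was called lower in SA:ANH-KDM5Ci against both other groups. That list's medians were -0.03 against SA:ANH-vehicle and -0.36 against NS. Eomes and Tbx21 of this list had log2 fold changes of -3.49 (adjusted p 0.1895) and -1.595 (adjusted p 0.351) in SA:ANH-KDM5Ci against NS. Both were highest in NS replicate 3, at 4.82 CPM for Eomes and 2.07 CPM for Tbx21. No SA:ANH-KDM5Ci library was above 0.356 CPM for Eomes or 0.448 CPM for Tbx21. The part of dissected tissue in the comparisons against NS was not tested. In SA:ANH-KDM5Ci against NS, the interneuron gene Dlx1 had a log2 fold change of -0.18, and Tcf7l2 of the Lef1 list had 0.03.

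The genes outside the clusters held all the protocadherins that passed the test. In SA:ANH-KDM5Ci against SA:ANH-vehicle mPFC, Pcdh12 and Pcdh18 were lower, and in SA:ANH-KDM5Ci against NS mPFC, Pcdh12, Pcdh18 and Pcdh20 were lower. None of the 12 was higher in either, and none passed in SA:ANH-vehicle against NS. DESeq2 and limma-voom called as many, with 2, 3 and 0 of the 12 in these comparisons, where DESeq2 called 3.12%, 5.76% and 0.517% and limma-voom 2.28%, 3.70% and 0.0198% of all genes they tested. The counts come from edgeR's quasi-likelihood test over the 15144 genes that passed a filter on low counts, with Benjamini-Hochberg adjusted p under 0.05, which all adjusted p-values below refer to unless another tool is named. Among all genes tested, 2.51% were called, 1.62% lower and 0.891% higher, in SA:ANH-KDM5Ci against SA:ANH-vehicle, and 3.97% were called, 2.11% lower and 1.86% higher, in SA:ANH-KDM5Ci against NS. In SA:ANH-vehicle against NS, 0.0132% were called, all higher, and 0.00% lower. At an unadjusted p under 0.05, 3 of the 12 genes outside the clusters passed in SA:ANH-KDM5Ci against SA:ANH-vehicle, 5 in SA:ANH-KDM5Ci against NS and 0 in SA:ANH-vehicle against NS, against 14.2%, 18.5% and 8.21% of all genes.

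**Figure D1:**
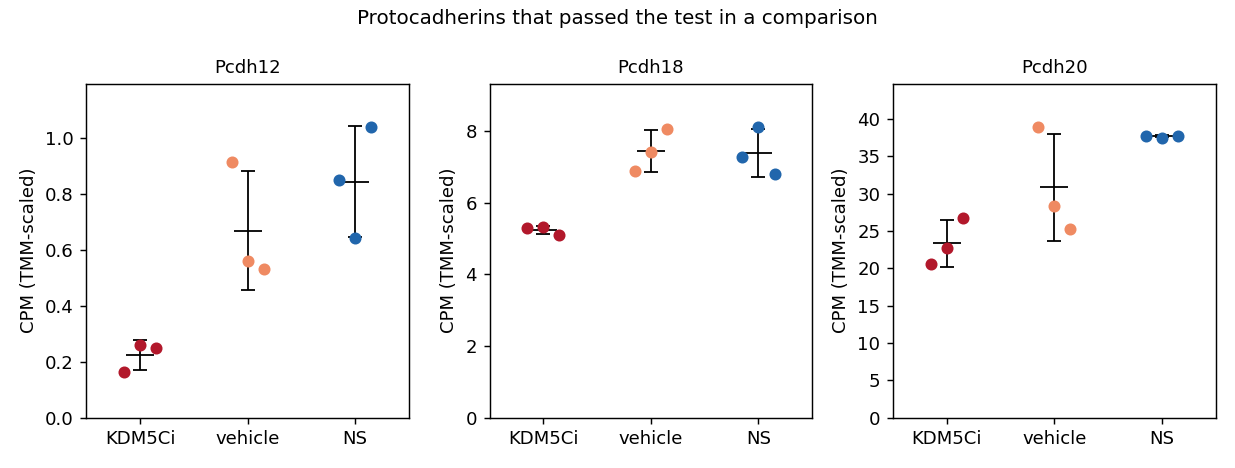
CPM (TMM-scaled, vertical axis from 0) of Pcdh12, Pcdh18 and Pcdh20 in the 3 libraries of SA:ANH-KDM5Ci, SA:ANH-vehicle and NS, with horizontal bars for means and error bars for SD. The SA:ANH-KDM5Ci points of Pcdh12 and Pcdh18 lie under every point of the other groups, and those of Pcdh20 lie under every NS point and overlap SA:ANH-vehicle.

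Pcdh18 is a delta2 member whose mouse protein binds the adaptor Dab1. It lies on chromosome 3 from 49743291 to 49757383 in GRCm38.p6 and has 4 exons in the longest matched transcript. Its level was 5.28, 5.33 and 5.10 CPM in SA:ANH-KDM5Ci, against 6.89, 7.42 and 8.06 CPM in SA:ANH-vehicle and 7.29, 8.11 and 6.79 CPM in NS. The 3 SA:ANH-KDM5Ci libraries were below all 6 others, and the other groups overlapped. The log2 fold change was -0.51 in SA:ANH-KDM5Ci against SA:ANH-vehicle (95% interval -0.73 to -0.29, adjusted p 0.0177) and -0.50 in SA:ANH-KDM5Ci against NS (-0.72 to -0.28, adjusted p 0.0157). It was 0.01 in SA:ANH-vehicle against NS (-0.21 to 0.22, adjusted p 0.994). The direction held in all 19 alternative settings, with the log2 fold change between -0.56 and -0.45 against SA:ANH-vehicle and between -0.56 and -0.43 against NS. The call against SA:ANH-vehicle was lost without SA:ANH-vehicle replicate 2 or 3 or any SA:ANH-KDM5Ci library, at adjusted p up to 0.0804, and the call against NS without NS replicate 2 or SA:ANH-KDM5Ci replicate 1 or 3, at adjusted p up to 0.0853.

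Between groups, markers of meninges and fibroblasts moved in the same direction as Pcdh18. Their sum was 152, 165 and 152 CPM in SA:ANH-KDM5Ci, against 267, 192 and 184 CPM in SA:ANH-vehicle and 169, 229 and 244 CPM in NS. Within groups the order of libraries differed. In SA:ANH-vehicle the sum fell from replicate 1 to 3, while Pcdh18 was lowest in replicate 1 and highest in replicate 3. In NS the sum was highest in replicate 3, where Pcdh18 was lowest. In SA:ANH-KDM5Ci both were highest in replicate 2. Of the 12, 4 were called lower in SA:ANH-KDM5Ci against SA:ANH-vehicle (Foxc1, Foxc2, Lum, Slc22a6) and 2 in SA:ANH-KDM5Ci against NS (Foxc1, Slc22a6), with median log2 fold changes of -0.74 and -0.68. Pdgfra of the same list had 0.12 (adjusted p 0.526) and -0.01 (adjusted p 0.959). Among mural cell markers, 1 of 7, Pdgfrb, was called lower in both comparisons. The list's medians were -0.07 and 0.04. In SA:ANH-KDM5Ci against NS, Kcnj8 (log2 fold change 0.33, adjusted p 0.267) and Abcc9 (0.24, adjusted p 0.324) had values above 0. Vtn had a value below 0 there (-0.28, adjusted p 0.068), and its SA:ANH-KDM5Ci libraries were below all others. No marker of these lists was at 0. The part of these markers in the Pcdh18 result was not tested. In bulk samples such as these, fewer cells of a type and less RNA per cell cannot be told apart.

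Pcdh20 lies on chromosome 14 from 88464743 to 88471396. Its level was 20.6, 22.8 and 26.7 CPM in SA:ANH-KDM5Ci, against 38.9, 28.3 and 25.3 CPM in SA:ANH-vehicle and 37.7, 37.5 and 37.8 CPM in NS. All SA:ANH-KDM5Ci libraries were below all NS libraries. In SA:ANH-vehicle, replicate 1 stood above the NS libraries and replicate 3 was below the highest SA:ANH-KDM5Ci library. The log2 fold change in SA:ANH-KDM5Ci against NS was -0.69 (95% interval -1.02 to -0.36, adjusted p 0.0334). It was -0.40 in SA:ANH-KDM5Ci against SA:ANH-vehicle (-0.73 to -0.07, adjusted p 0.244) and -0.28 in SA:ANH-vehicle against NS (-0.61 to 0.04, adjusted p 0.663), and neither passed. The call against NS was lost in 7 of 19 settings. These were the fit with no filter on low counts (adjusted p 0.0589), the fit with replicate numbers as a block (adjusted p 0.0517), and the fits without any NS library or without SA:ANH-KDM5Ci replicate 1 or 2 (adjusted p up to 0.104).

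Promoter sequences of the table, which spans 250 bases before to 50 after each start, were matched for 9 of the 12 genes outside the clusters. Pcdh12, called lower in SA:ANH-KDM5Ci against both other groups, was not among the 9. Pcdh18 and Pcdh20 are printed because they fell in SA:ANH-KDM5Ci against NS, and Pcdh10 because it had the highest level per length outside the clusters and did not pass. They are RefSeq sequences of GRCm38.p6, 5′ to 3′ on the gene's strand, at chr3:49757267-49757566 (minus strand) for Pcdh18, chr14:88471347-88471646 (minus strand) for Pcdh20 and chr3:45378148-45378447 (plus strand) for Pcdh10. Capitals mark CGCT and its reverse complement AGCG, the core letters of the conserved element found in most clustered protocadherin promoters.
Pcdh18: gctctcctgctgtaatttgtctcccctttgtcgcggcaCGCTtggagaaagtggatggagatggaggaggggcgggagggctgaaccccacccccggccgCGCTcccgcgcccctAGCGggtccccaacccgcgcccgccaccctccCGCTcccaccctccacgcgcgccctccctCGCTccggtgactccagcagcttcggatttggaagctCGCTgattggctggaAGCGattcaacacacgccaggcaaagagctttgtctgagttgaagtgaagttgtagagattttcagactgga
Pcdh20: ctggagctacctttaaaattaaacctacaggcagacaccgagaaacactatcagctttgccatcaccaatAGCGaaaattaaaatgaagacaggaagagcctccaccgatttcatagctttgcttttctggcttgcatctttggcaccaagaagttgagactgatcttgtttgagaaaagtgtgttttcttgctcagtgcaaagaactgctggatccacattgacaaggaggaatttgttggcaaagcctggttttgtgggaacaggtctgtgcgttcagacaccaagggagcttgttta
Pcdh10: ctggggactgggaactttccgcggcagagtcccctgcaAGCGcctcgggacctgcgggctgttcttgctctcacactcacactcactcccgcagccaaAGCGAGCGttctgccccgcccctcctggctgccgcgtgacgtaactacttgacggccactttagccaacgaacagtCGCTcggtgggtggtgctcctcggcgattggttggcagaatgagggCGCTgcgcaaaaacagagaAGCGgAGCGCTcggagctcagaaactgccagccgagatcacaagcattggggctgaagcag

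The Pcdh18 promoter holds 7 matches to CGCT on either strand, the Pcdh20 promoter 1 and the Pcdh10 promoter 8, where an overlap of AGCG with CGCT counts as 2 matches. CGCT occurs in 61.8% of 32851 promoters of the same length, and in 10 of 10 promoters matched for genes outside the clusters (Pcdh9 has 2). The Pcdh18 and Pcdh10 promoters are rich in CG, with 23 and 24 CG dinucleotides, more than 78.5% and 80.0% of all promoters. The Pcdh20 promoter has 4, more than 31.4% of promoters. GGGCGG, the letters of a GC box, was found on either strand in 35.7% of all promoters and in 4 of these 10, including Pcdh18 and Pcdh10. Pcdh18 and Pcdh20 were thus called in the same direction in SA:ANH-KDM5Ci against NS, with promoters that differ in CG number.

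Pcdh12, or VE-cadherin-2, is a protocadherin of endothelial cells. It lies on chromosome 18 from 38267092 to 38284401, outside the clusters, and was near the lower end of detection. It had 5, 8 and 10 counts in SA:ANH-KDM5Ci, against 39, 20 and 18 counts in SA:ANH-vehicle and 30, 23 and 31 counts in NS. This is 0.164, 0.259 and 0.249 CPM in SA:ANH-KDM5Ci, 0.914, 0.560 and 0.530 CPM in SA:ANH-vehicle and 0.848, 0.641 and 1.04 CPM in NS. Every SA:ANH-KDM5Ci library was below every other library. The log2 fold change was -1.57 in SA:ANH-KDM5Ci against SA:ANH-vehicle (95% interval -2.34 to -0.80, adjusted p 0.0344) and -1.87 in SA:ANH-KDM5Ci against NS (-2.62 to -1.12, adjusted p 0.00895). It was -0.30 in SA:ANH-vehicle against NS (-0.91 to 0.31, adjusted p 0.848), which did not pass. In the 18 alternatives that tested the gene, the value ranged from -1.71 to -1.25 against SA:ANH-vehicle and from -2.04 to -1.70 against NS. The call against SA:ANH-vehicle was lost in 7 of them. These were the fit of only the 2 groups compared (adjusted p 0.0508), the replicate block (adjusted p 0.0521), and the fits without SA:ANH-vehicle replicate 1 or 2 or any SA:ANH-KDM5Ci library (adjusted p up to 0.134). The call against NS was lost without SA:ANH-KDM5Ci replicate 1 (adjusted p 0.0508).

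Endothelial markers moved with Pcdh12 in part. They summed to 233, 196 and 184 CPM in SA:ANH-KDM5Ci, against 255, 242 and 236 CPM in SA:ANH-vehicle and 235, 252 and 247 CPM in NS, so that all SA:ANH-KDM5Ci libraries were below the others. Of the 8, Cldn5, Kdr and Slco1a4 were called lower in SA:ANH-KDM5Ci against each of the other groups, and the median log2 fold changes were -0.17 against SA:ANH-vehicle and -0.18 against NS. Pecam1, an adhesion molecule of endothelium, averaged 21.1 ± 3.75 CPM in SA:ANH-KDM5Ci, 21.2 ± 1.97 CPM in SA:ANH-vehicle and 20.9 ± 0.737 CPM in NS (SD, n = 3 each). Cdh5, which encodes VE-cadherin, averaged 14.5 ± 1.72 CPM in SA:ANH-KDM5Ci, 16.6 ± 1.57 CPM in SA:ANH-vehicle and 15.9 ± 0.620 CPM in NS. Ly6c1, another endothelial marker, averaged 28.4 ± 6.07 CPM in SA:ANH-KDM5Ci, 26.1 ± 0.702 CPM in SA:ANH-vehicle and 21.9 ± 0.274 CPM in NS, and every SA:ANH-KDM5Ci library was above every NS library (log2 fold change 0.37, adjusted p 0.109). These 3 genes did not pass in any comparison. Tek averaged 15.7 ± 0.546 CPM in SA:ANH-KDM5Ci, 17.5 ± 0.943 CPM in SA:ANH-vehicle and 18.4 ± 1.76 CPM in NS. Its SA:ANH-KDM5Ci libraries were below all others. The log2 fold change of Tek was -0.15 against SA:ANH-vehicle (adjusted p 0.431) and -0.23 against NS (adjusted p 0.144), and neither passed. For Flt1 these values were -0.13 and -0.03, and its groups overlapped. No endothelial marker was at 0, and the part of the marker level in the Pcdh12 result was not tested.

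The remaining delta2 genes were among the highest of the family and did not pass in any comparison. Pcdh10, which acts in axon growth through the WAVE complex, had 345, 387 and 318 CPM in SA:ANH-KDM5Ci, 345, 402 and 394 CPM in SA:ANH-vehicle and 367, 423 and 433 CPM in NS. Its groups overlapped, and its log2 fold change was -0.12 against SA:ANH-vehicle (95% interval -0.31 to 0.06, adjusted p 0.597) and -0.22 in SA:ANH-KDM5Ci against NS (-0.40 to -0.03, adjusted p 0.188). Pcdh8, known in rat as the activity-induced arcadlin, had 35.4, 37.5 and 33.1 CPM in SA:ANH-KDM5Ci, 31.1, 41.9 and 40.0 CPM in SA:ANH-vehicle and 36.8, 41.3 and 43.3 CPM in NS. Its log2 fold change in SA:ANH-KDM5Ci against NS was -0.20 (-0.42 to 0.03). Pcdh17, which acts in synapse assembly of corticobasal ganglia circuits in mouse, averaged 109 ± 8.50 CPM in SA:ANH-KDM5Ci, 105 ± 4.93 CPM in SA:ANH-vehicle and 104 ± 4.93 CPM in NS. Its 95% intervals lay within -0.12 and 0.20 on the log2 scale in all 3 comparisons. Pcdh19, the X-linked gene of a human epilepsy seen mainly in females, had 57.6, 67.2 and 52.2 CPM in SA:ANH-KDM5Ci, 55.9, 66.3 and 63.9 CPM in SA:ANH-vehicle and 54.6, 66.8 and 66.7 CPM in NS, with log2 fold changes from -0.09 to -0.02.

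The 4 delta1 genes, which carry conserved motifs of the cytoplasmic tail including a binding site of protein phosphatase PP1, did not pass either. Pcdh1 had 92.8, 101 and 82.1 CPM in SA:ANH-KDM5Ci, 95.4, 98.4 and 94.0 CPM in SA:ANH-vehicle and 103, 105 and 102 CPM in NS. All libraries of both stressed groups were below all NS libraries, but the log2 fold change in SA:ANH-KDM5Ci against NS was only -0.17 (95% interval -0.31 to -0.03, adjusted p 0.173), and in SA:ANH-vehicle against NS it was -0.11 (-0.25 to 0.03, adjusted p 0.716). In SA:ANH-KDM5Ci against NS it passed in 1 alternative, without SA:ANH-KDM5Ci replicate 2 (adjusted p 0.0466). Pcdh7 had 217, 232 and 225 CPM in SA:ANH-KDM5Ci, 242, 201 and 187 CPM in SA:ANH-vehicle and 203, 230.1 and 217 CPM in NS. Pcdh9 had 139, 148 and 144 CPM in SA:ANH-KDM5Ci, 158, 128 and 124 CPM in SA:ANH-vehicle and 135, 144 and 133 CPM in NS. For both, SA:ANH-vehicle replicate 1 was the highest of the 9 libraries and SA:ANH-vehicle replicate 3 the lowest. The X-linked Pcdh11x averaged 30.9 ± 3.66 CPM in SA:ANH-KDM5Ci, 33.0 ± 1.12 CPM in SA:ANH-vehicle and 35.7 ± 5.89 CPM in NS. Pcdh15, which forms the tip links of hair cells with cadherin 23, averaged 27.0 ± 2.58 CPM in SA:ANH-KDM5Ci, 26.0 ± 1.37 CPM in SA:ANH-vehicle and 28.3 ± 2.44 CPM in NS, and did not pass.

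**Figure D2:**
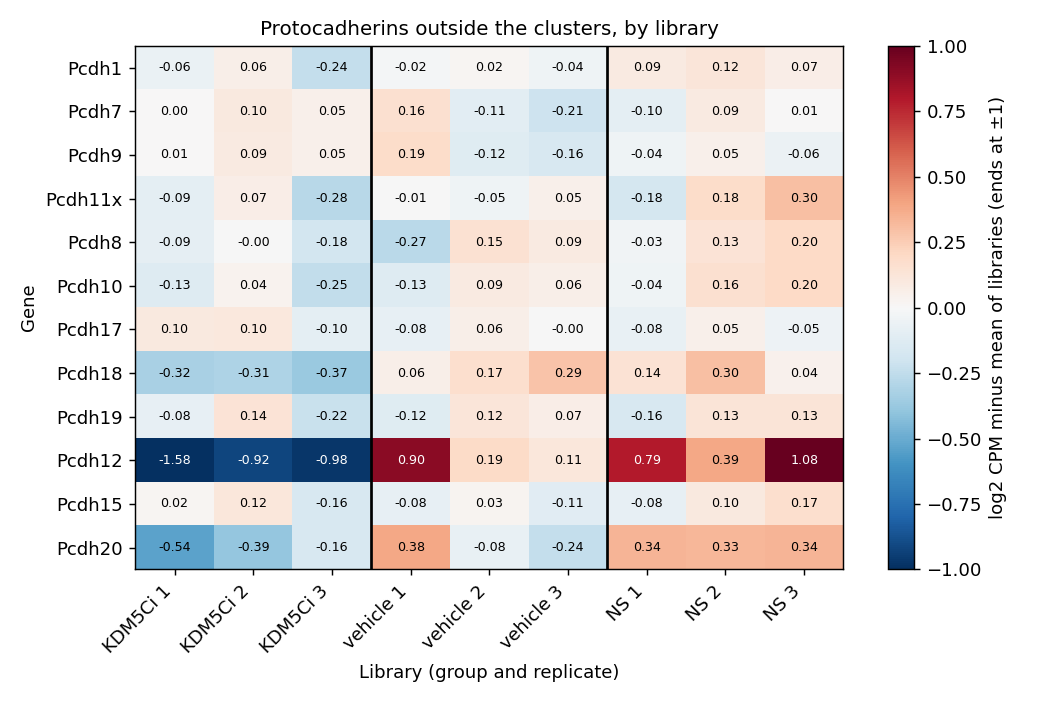
log2 CPM of the 12 protocadherins outside the clusters (rows) in each of the 9 libraries (columns, by group and replicate), with each gene's mean over the libraries subtracted and colours ending at ±1. Pcdh12 and Pcdh18 are lower in all SA:ANH-KDM5Ci libraries, while Pcdh8, Pcdh10, Pcdh17 and Pcdh19 are lowest within their groups in SA:ANH-KDM5Ci replicate 3, SA:ANH-vehicle replicate 1 and NS replicate 1.

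Several genes outside the clusters shared an order of libraries within groups, noticed after the values were seen and given with no test. Pcdh8, Pcdh10, Pcdh17 and Pcdh19 were each lowest in SA:ANH-KDM5Ci replicate 3, in SA:ANH-vehicle replicate 1 and in NS replicate 1. In SA:ANH-vehicle and NS, replicate 1 was also the library with the highest sum of oligodendrocyte markers, and in SA:ANH-KDM5Ci replicate 3 was the middle one. The part of tissue makeup in this order was not tested.

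Of the 58 genes of the clusters, 57 were tested, and none passed in any of the 3 comparisons by edgeR or limma-voom. EdgeR called 2.51%, 3.97% and 0.0132% of all genes in SA:ANH-KDM5Ci against SA:ANH-vehicle, SA:ANH-KDM5Ci against NS and SA:ANH-vehicle against NS, and limma-voom called 2.28%, 3.70% and 0.0198%. Pcdhb1, with 2 to 11 counts per library, was removed by the filter. DESeq2 called 0 in SA:ANH-KDM5Ci against SA:ANH-vehicle and in SA:ANH-vehicle against NS, and 2 (Pcdha6, Pcdhac2) in SA:ANH-KDM5Ci against NS, where it called 5.76% of all genes it tested. At an unadjusted p under 0.05 in edgeR, 5 of 57 passed in SA:ANH-KDM5Ci against SA:ANH-vehicle (Pcdha1, Pcdhac2, Pcdhb11, Pcdhb14, Pcdhb20), 6 in SA:ANH-KDM5Ci against NS (Pcdha3, Pcdha6, Pcdhac2, Pcdhb8, Pcdhb14, Pcdhgc5) and 5 in SA:ANH-vehicle against NS (Pcdha6, Pcdha10, Pcdhga2, Pcdhga5, Pcdhga8). The shares of all genes under that threshold were 14.2%, 18.5% and 8.21%. The 95% interval of the log2 fold change lay within ±0.5 for 50 of 57 genes in SA:ANH-KDM5Ci against SA:ANH-vehicle, for 49 in SA:ANH-KDM5Ci against NS and for 48 in SA:ANH-vehicle against NS.

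The clustered genes leaned slightly below 0. Their median log2 fold change was -0.03 in SA:ANH-KDM5Ci against SA:ANH-vehicle, -0.07 in SA:ANH-KDM5Ci against NS and -0.05 in SA:ANH-vehicle against NS, where the medians of all genes tested rounded to 0.00. Of the 57, 33, 41 and 38 had a value below 0 in these comparisons, against 48.9%, 50.1% and 48.4% of all genes. The comparisons share groups, so their counts are not separate observations. The libraries of the groups did not overlap for 6 of 57 clustered genes in SA:ANH-KDM5Ci against SA:ANH-vehicle, for 7 in SA:ANH-KDM5Ci against NS and for 6 in SA:ANH-vehicle against NS. Over all genes tested this held for 18.9%, 23.5% and 15.1%.

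**Figure D3:**
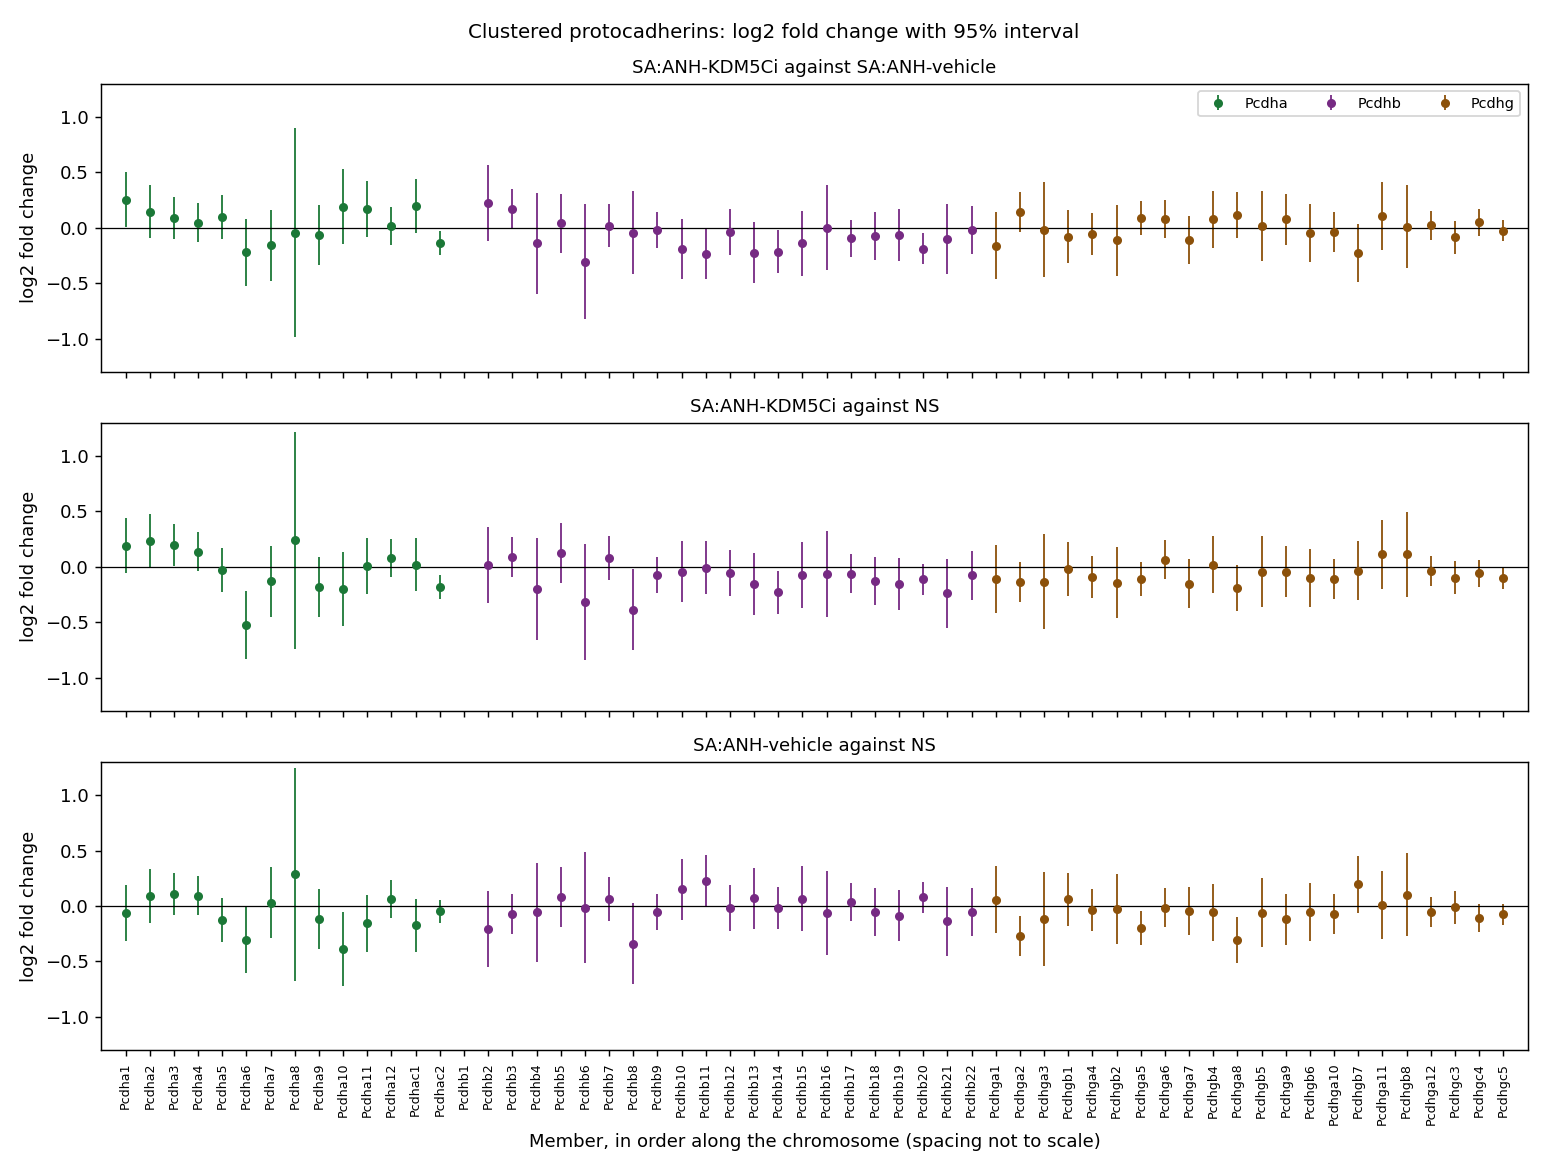
log2 fold change (points) with its 95% interval (lines) for the 57 clustered protocadherins tested, in order along the chromosome, with 1 panel per comparison; Pcdhb1 was not tested and has no point. Most intervals cross 0, and the widest belong to Pcdha8.

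Summed over their members, the clusters gave the following levels. Pcdha genes summed to 271 ± 12.1 CPM in SA:ANH-KDM5Ci, 273 ± 7.48 CPM in SA:ANH-vehicle and 283 ± 7.53 CPM in NS (SD, n = 3 each). Pcdhb genes summed to 164 ± 3.96 CPM in SA:ANH-KDM5Ci, 172 ± 6.13 CPM in SA:ANH-vehicle and 172 ± 5.30 CPM in NS. Pcdhg genes, the most abundant, summed to 709 ± 9.23 CPM in SA:ANH-KDM5Ci, 721 ± 9.30 CPM in SA:ANH-vehicle and 753 ± 7.04 CPM in NS, and all libraries of the stressed groups were below the NS libraries. All clustered genes together summed to 1143, 1149 and 1140 CPM in SA:ANH-KDM5Ci, to 1180, 1166 and 1152 CPM in SA:ANH-vehicle and to 1196, 1220 and 1210 CPM in NS. The 3 groups did not overlap in this sum. The log2 ratios of the group means were -0.03 in SA:ANH-KDM5Ci against SA:ANH-vehicle, -0.08 in SA:ANH-KDM5Ci against NS and -0.05 in SA:ANH-vehicle against NS, a description with no test. On total counts without TMM the ratio in SA:ANH-KDM5Ci against SA:ANH-vehicle was -0.0504.

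**Figure D4:**
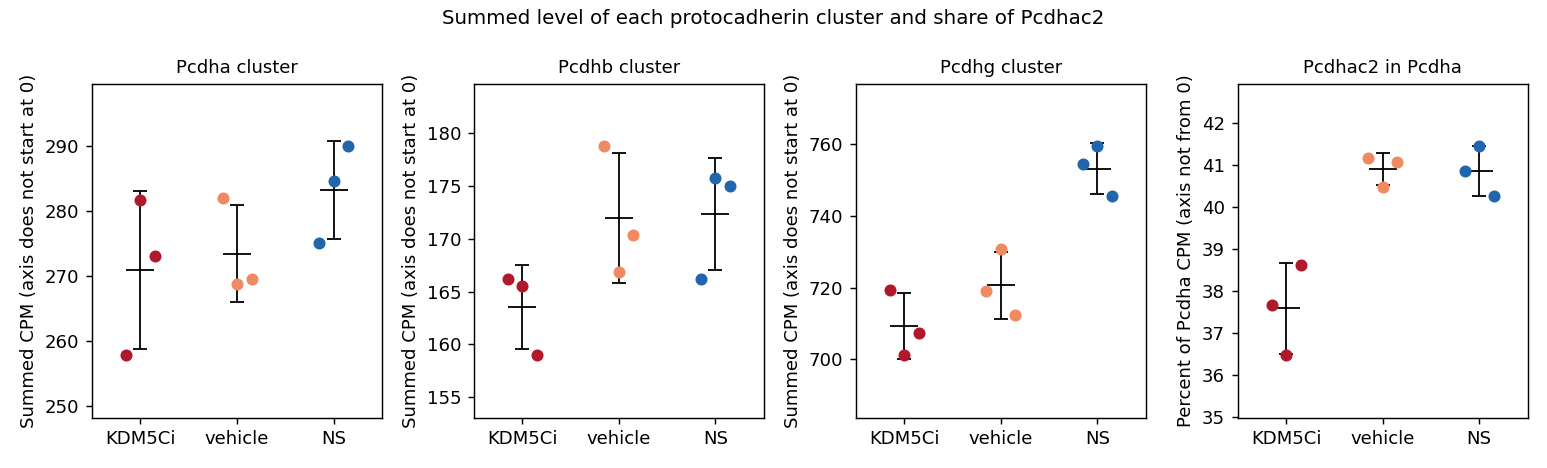
Summed CPM of the Pcdha, Pcdhb and Pcdhg genes and the percentage of the Pcdha sum held by Pcdhac2, per library, with means and SD for SA:ANH-KDM5Ci, SA:ANH-vehicle and NS; the vertical axes do not start at 0. Pcdhg sums of both stressed groups lie below NS, and the Pcdhac2 share lies between 36.5% and 38.6% in SA:ANH-KDM5Ci, under all other libraries.

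The C-type genes dominated the clusters and held from 45.6% to 47.3% of the clustered sum in every library. Pcdhac2, at the end of the Pcdha cluster, had 97.1, 103 and 106 CPM in SA:ANH-KDM5Ci, 116, 109 and 111 CPM in SA:ANH-vehicle and 112, 118 and 117 CPM in NS. Its SA:ANH-KDM5Ci libraries were below all others, and its share of the Pcdha sum was 37.7%, 36.5% and 38.6% in SA:ANH-KDM5Ci, against 41.2%, 40.5% and 41.1% in SA:ANH-vehicle and 40.9%, 41.5% and 40.3% in NS. The log2 fold change of Pcdhac2 was -0.14 in SA:ANH-KDM5Ci against SA:ANH-vehicle (95% interval -0.24 to -0.03, adjusted p 0.211) and -0.18 in SA:ANH-KDM5Ci against NS (-0.29 to -0.08, adjusted p 0.0560). Neither passed, though DESeq2 gave an adjusted p of 0.0187 for Pcdhac2 in SA:ANH-KDM5Ci against NS at a log2 fold change of -0.18. Pcdhac1 averaged 11.8 ± 1.11 CPM in SA:ANH-KDM5Ci, 10.3 ± 1.44 CPM in SA:ANH-vehicle and 11.7 ± 1.09 CPM in NS.

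Pcdhgc5 was the most abundant clustered gene, with 262, 283 and 276 CPM in SA:ANH-KDM5Ci, 273, 285 and 278 CPM in SA:ANH-vehicle and 289, 298 and 294 CPM in NS. All libraries of both stressed groups were below NS, yet the log2 fold changes were only -0.10 in SA:ANH-KDM5Ci against NS (95% interval -0.20 to -0.01, adjusted p 0.237) and -0.08 in SA:ANH-vehicle against NS (-0.17 to 0.02, adjusted p 0.711). Pcdhgc3 had 122, 100.3 and 102 CPM in SA:ANH-KDM5Ci, 117, 115 and 113 CPM in SA:ANH-vehicle and 122, 116 and 110.3 CPM in NS, so its groups overlapped. Pcdhgc4, which in mouse protects cortical interneurons from developmental death, averaged 29.1 ± 0.668 CPM in SA:ANH-KDM5Ci, 28.1 ± 1.31 CPM in SA:ANH-vehicle and 30.3 ± 1.02 CPM in NS. The Pcdhgc5 share of the Pcdhg sum averaged 38.6%, 38.7% and 39.0% in SA:ANH-KDM5Ci, SA:ANH-vehicle and NS, the Pcdhga share 32.6%, 31.8% and 32.5%, and the Pcdhgb share 9.44%, 9.70% and 9.07%.

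Among the alternate Pcdha genes, those chosen by individual neurons, Pcdha6 came nearest to the threshold. It had 6.46, 8.14 and 6.17 CPM in SA:ANH-KDM5Ci, 7.59, 9.52 and 7.09 CPM in SA:ANH-vehicle and 9.64, 8.84 and 11.4 CPM in NS. Its SA:ANH-KDM5Ci libraries were below all NS libraries, with a log2 fold change of -0.53 (95% interval -0.83 to -0.22, adjusted p 0.0560), and DESeq2 gave -0.52 with an adjusted p of 0.0175. Against SA:ANH-vehicle it was -0.22 (adjusted p 0.544). Pcdha1 had 8.86, 9.86 and 8.81 CPM in SA:ANH-KDM5Ci, 7.52, 7.89 and 7.68 CPM in SA:ANH-vehicle and 8.34, 9.20 and 6.49 CPM in NS, with a log2 fold change of 0.25 against SA:ANH-vehicle (0.01 to 0.50, adjusted p 0.337). Pcdha10 had 10.5, 16.9 and 12.6 CPM in SA:ANH-KDM5Ci, 11.7, 12.1 and 11.2 CPM in SA:ANH-vehicle and 14.4, 13.7 and 17.9 CPM in NS. Its log2 fold change in SA:ANH-vehicle against NS was -0.39 (-0.73 to -0.06, adjusted p 0.534). Pcdha3 averaged 13.5 ± 0.984 CPM in SA:ANH-KDM5Ci, 12.6 ± 1.05 CPM in SA:ANH-vehicle and 11.8 ± 0.788 CPM in NS. Pcdha8, the lowest of the cluster, ranged from 0.822 to 2.89 CPM within SA:ANH-KDM5Ci alone, and its interval against SA:ANH-vehicle ran from -0.99 to 0.90. Along the chromosome, Pcdha1 to Pcdha4 had log2 fold changes of 0.14 to 0.24 in SA:ANH-KDM5Ci against NS, and the C-type Pcdhac2 at the other end had -0.18. The genes between them were mixed, from -0.53 for Pcdha6 to 0.24 for Pcdha8, with 0.02 for Pcdhac1. No gene of this run passed.

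Pcdhb genes lack constant exons, so that their reads are not shared through a common tail. Of the 21 tested, 17 had a log2 fold change below 0 in SA:ANH-KDM5Ci against SA:ANH-vehicle, with a median of -0.08. Pcdhb20 had 16.2, 16.6 and 16.2 CPM in SA:ANH-KDM5Ci, 17.8, 18.6 and 19.4 CPM in SA:ANH-vehicle and 17.3, 17.3 and 18.3 CPM in NS. It had the lowest adjusted p of the clustered genes in SA:ANH-KDM5Ci against SA:ANH-vehicle, 0.173, at a log2 fold change of -0.19 (95% interval -0.33 to -0.05). Pcdhb14 had 6.43, 6.88 and 7.34 CPM in SA:ANH-KDM5Ci, 7.97, 7.92 and 8.15 CPM in SA:ANH-vehicle and 7.66, 8.11 and 8.53 CPM in NS. Its SA:ANH-KDM5Ci libraries were below all others, with log2 fold changes of -0.22 against SA:ANH-vehicle (adjusted p 0.282) and -0.23 against NS (adjusted p 0.184). Pcdhb11 averaged 7.001 ± 0.606 CPM in SA:ANH-KDM5Ci, 8.23 ± 0.743 CPM in SA:ANH-vehicle and 7.03 ± 0.672 CPM in NS. Pcdhb8 averaged 2.77 ± 0.634 CPM in SA:ANH-KDM5Ci, 2.85 ± 0.433 CPM in SA:ANH-vehicle and 3.59 ± 0.187 CPM in NS. Pcdhb2 averaged 4.13 ± 0.363 CPM in SA:ANH-KDM5Ci, 3.51 ± 0.813 CPM in SA:ANH-vehicle and 4.08 ± 0.377 CPM in NS. None of Pcdhb11, Pcdhb8 and Pcdhb2 passed in any comparison. Pcdhb17 was the highest of the cluster, with 21.3 ± 1.75 CPM in SA:ANH-KDM5Ci, 22.7 ± 1.04 CPM in SA:ANH-vehicle and 22.2 ± 1.91 CPM in NS.

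In the Pcdhg cluster, the alternate genes with the lowest p were lower in SA:ANH-vehicle against NS, and none passed. Pcdhga2 had 13.5, 12.8 and 12.2 CPM in SA:ANH-KDM5Ci, 12.6, 10.6 and 11.7 CPM in SA:ANH-vehicle and 14.0, 13.4 and 14.9 CPM in NS. Pcdhga8 averaged 19.6 ± 1.68 CPM in SA:ANH-KDM5Ci, 18.2 ± 1.63 CPM in SA:ANH-vehicle and 22.5 ± 2.49 CPM in NS. Their log2 fold changes in SA:ANH-vehicle against NS were -0.27 (95% interval -0.45 to -0.09, adjusted p 0.369) for Pcdhga2 and -0.31 (-0.51 to -0.10, adjusted p 0.390) for Pcdhga8. Pcdhga5 averaged 22.2 ± 1.71 CPM in SA:ANH-KDM5Ci, 20.9 ± 0.848 CPM in SA:ANH-vehicle and 24.0 ± 1.23 CPM in NS. Pcdhgb7 averaged 8.99 ± 1.66 CPM in SA:ANH-KDM5Ci, 10.5 ± 0.392 CPM in SA:ANH-vehicle and 9.19 ± 0.945 CPM in NS. Pcdhgb5, the lowest of the cluster, averaged 5.33 ± 0.455 CPM in SA:ANH-KDM5Ci, 5.26 ± 0.495 CPM in SA:ANH-vehicle and 5.47 ± 1.151 CPM in NS. Neither passed in any comparison. In SA:ANH-KDM5Ci against SA:ANH-vehicle, all 22 Pcdhg intervals lay within ±0.5, and 11 genes were above 0 and 11 below.

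How evenly a cluster's reads spread over its genes was measured as an effective number of isoforms, the count of equally abundant genes that would give the same diversity. It averaged 8.77 ± 0.274 for Pcdha in SA:ANH-KDM5Ci, 8.22 ± 0.155 in SA:ANH-vehicle and 8.30 ± 0.115 in NS, of 14 genes. The SA:ANH-KDM5Ci libraries, at 8.48 to 9.02, were above all others, and the Pcdhac2 share given above is part of this number. For Pcdhb it averaged 17.6, 17.6 and 17.8 in SA:ANH-KDM5Ci, SA:ANH-vehicle and NS, of 22 genes, and for Pcdhg 10.2, 10.1 and 10.1.

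Counts of clustered genes carry a limit from their structure. All 14 Pcdha genes share exons 2 and 3 in the annotation, and so do the 21 Pcdhg genes annotated with 4 exons. In the median Pcdha transcript the first exon covers 2490 bases and the exons after it 2860 bases. The deposited values of Pcdha and Pcdhg genes were not whole numbers in 100% of cases, and those of Pcdhb genes in 92.4% (tolerance 1e-06). The same held for 100% of delta1 and 77.8% of delta2 values, so it is not particular to the clusters. How reads in shared exons were counted is not given in the sources used here. Values of single clustered genes are uncertain for that reason, while the cluster sums do not depend on a split within a cluster. The median coefficient of variation within groups was 11.2% for Pcdha, 10.1% for Pcdhb and 10.8% for Pcdhg genes, where counting error alone gives 4.90%, 6.22% and 4.24%.

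Divided by the length of the longest matched transcript, available for 69 of the 70 genes, mean levels over all libraries were led by Pcdhgc5 at 59.5 CPM per kb and Pcdh10 at 46.1 CPM per kb. Pcdh1 at 24.9, Pcdh7 at 24.7, Pcdhgc3 at 24.1, Pcdh9 at 22.7 and Pcdhac2 at 18.7 CPM per kb followed. The leading 7 thus held 3 C-type genes, 3 delta1 genes and 1 delta2 gene. The median per length was 2.202 CPM per kb for Pcdha, 1.64 for Pcdhb and 3.45 for Pcdhg genes. Some matched Pcdhb transcripts are longer than the RefSeq gene, such as Pcdhb14 with 8695 bases for a gene from 37447657 to 37451094. Their values per length may be too low for that reason. For Pcdha and Pcdhg genes these values depend on how reads in shared exons were counted, which is not known. The genes that passed the test were lower in this order, with Pcdh20 at 5.84 CPM per kb, Pcdh18 at 1.296 and Pcdh12 at 0.104 CPM per kb. Pcdhb1 was the lowest at 0.0586 CPM per kb.

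Of 64 tested genes in 5 lists of regulators, partners and related cadherins, edgeR called 0 in SA:ANH-KDM5Ci against SA:ANH-vehicle, 3 in SA:ANH-KDM5Ci against NS and 0 in SA:ANH-vehicle against NS, beside 2.51%, 3.97% and 0.0132% of all genes. At an unadjusted p under 0.05 there were 5, 10 and 6 of the 64, beside 14.2%, 18.5% and 8.21% of all genes. Of 18 regulators of clustered protocadherin promoters, among them the insulator factor Ctcf, cohesin subunits, Smchd1, Setdb1 and DNA methyltransferases, 0 passed in each comparison by edgeR, with 0, 2 and 2 at an unadjusted p under 0.05, and their median log2 fold changes were -0.01, 0.03 and 0.03 in SA:ANH-KDM5Ci against SA:ANH-vehicle, SA:ANH-KDM5Ci against NS and SA:ANH-vehicle against NS. Of 13 intracellular partners in the WAVE complex and focal adhesion kinase signalling, 1 was higher in SA:ANH-KDM5Ci against NS, and 1, 1 and 0 had an unadjusted p under 0.05. The called gene was Ptk2, which encodes focal adhesion kinase, at 189 ± 10.97 CPM in SA:ANH-KDM5Ci and 161 ± 8.74 CPM in NS (log2 fold change 0.23, adjusted p 0.0291). Of 7 tested genes of ADAM10 and gamma-secretase cleavage 0 passed (0, 1 and 0 at an unadjusted p under 0.05), and Aph1a is listed at 0. Of 17 tested classical and type II cadherins, 1 was higher in SA:ANH-KDM5Ci against NS, Cdh19, at 10.9 ± 1.26 CPM in SA:ANH-KDM5Ci and 8.002 ± 0.237 CPM in NS (log2 fold change 0.45, adjusted p 0.0247), and Cdh12 is listed at 0. Of these 17, 4, 5 and 2 had an unadjusted p under 0.05. Of 9 tested Fat, Dachsous and Celsr genes with their modifier Fjx1, 1 was lower in SA:ANH-KDM5Ci against NS. It was Fjx1, at 70.2 ± 5.33 CPM in SA:ANH-KDM5Ci and 95.7 ± 8.99 CPM in NS (log2 fold change -0.45, adjusted p 0.00418), and Dchs2 is listed at 0. Of these 9, 0, 1 and 2 had an unadjusted p under 0.05, and the list's median log2 fold changes were -0.05, -0.17 and -0.07. Cdh19 is also a gene of glial cells, and the oligodendrocyte marker sums given above were higher in SA:ANH-KDM5Ci replicates 1 and 3 than in any NS library; their part in this result was not tested.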

How the data were processed

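Total RNA of mPFC was made into libraries with a strand-specific SureSelect kit, per the labels' protocols. Trimmomatic 0.32, TopHat2 2.0.13, Bowtie2 2.2.3 and the build mm10 are named in the submitters' processing notes. The deposited values are expected counts per NCBI gene ID, which need not be whole. The sources used here do not say how reads were counted, with or without strand, or how shared reads were divided. Reads of a DBA2/J mouse may map differently where that strain differs from the build. The table held 0 columns of other samples. Symbols and positions came from RefSeq's GRCm38.p6 (the assembly that mm10 names) for 32891 IDs. Exons and transcript lengths came from a GENCODE annotation of the same assembly, matched by RefSeq accession.

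Expected counts were rounded. Genes were kept by edgeR's filterByExpr (15144) and tested with edgeR 4.0.16 in R 4.3.3 (TMM, robust quasi-likelihood fit of all 9 libraries, 1 mean per group, Benjamini-Hochberg at 0.05 over all genes tested). The common biological coefficient of variation was 6.95%. Simulated data of 15144 genes tested the procedure, with 200 genes changed in SA:ANH-KDM5Ci and compared with SA:ANH-vehicle. Of 100 genes changed by 1 on the log2 scale, 94 were called, and of 100 changed by 0.5, 66 were called. Of the unchanged genes, 13 were called. A change of 0.5 can thus be missed, and a gene can be called without a change. CPM are TMM-scaled. A count of 0 allows up to 3 counts in a library, counting error only. The 95% intervals use the fit's standard error and degrees of freedom. Alternatives were DESeq2 1.42.0, limma-voom (limma 3.58.1), other scalings and filters, a replicate block, fits of only the groups compared and leaving out each library. The members and gene lists were chosen with earlier results of these data known. Genes were named if called, if C-type, if among the 3 of lowest p per class and comparison, or if highest or lowest of a cluster, and from other lists if called. Cell type marker lists are given where they bear on a result.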

Additional observations from a re-analysis of the deposited data

How the results depend on the processing

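No called gene changed direction under any setting tried. Outside the clusters, the 2 genes called in SA:ANH-KDM5Ci against SA:ANH-vehicle became 1 with at least 1 CPM required in 3 libraries, which removed Pcdh12 from the test, and 1 with only the 2 groups in the fit. Leaving out a library gave 0 to 2 there and 0 to 3 for the 3 genes called in SA:ANH-KDM5Ci against NS, with 0 in both when SA:ANH-KDM5Ci replicate 1 was left out. Among clustered genes in SA:ANH-KDM5Ci against NS, the count of 0 became 2 by DESeq2, 1 on total counts without TMM, 1 with no filter on low counts, 2 at an adjusted p of 0.10, and 0 to 1 when a library was left out. The log2 ratio of the Pcdhg sum in SA:ANH-KDM5Ci against SA:ANH-vehicle was -0.02 and became -0.0453 without TMM. That of all clustered genes, an alternative added after the data were seen, was -0.03 and became -0.0504, and against NS it was -0.08 and became -0.0923. Their range without 1 library was -0.04 to -0.02 against SA:ANH-vehicle and -0.09 to -0.07 against NS, and for the Pcdhg sum against SA:ANH-vehicle -0.03 to -0.01. The causes of these shifts were not tested, apart from Pcdh12 under the CPM filter.

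Whether the replicate numbers pair the samples was not settled. Correlations of same-numbered libraries' deviations ran from -0.144 to 0.238, and those of differently numbered libraries from -0.251 to 0.209. Between SA:ANH-vehicle and SA:ANH-KDM5Ci, the same-numbered values were 0.238, 0.0839 and 0.184. The differently numbered values of these groups ran from -0.251 to 0.0851. With the replicate block, 1 gene outside the clusters was called in SA:ANH-KDM5Ci against SA:ANH-vehicle. Depth is lowest for Pcdhb1, Pcdh12 and Pcdhb6, with mean counts of 5.18, 20.4 and 48.1 per library.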
